A study of Mus musculus with 2 samples.

Results

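The genes described here are 10 identity genes of GABAergic interneurons, namely Gad1, Gad2, Lhx6, Adarb2, Pvalb, Calb2, Lamp5, Reln, Erbb4 and Nos1. They were chosen by exact gene symbol, which found 10 of 55536 annotated genes and 61 of 141767 annotated transcripts. GABAergic interneurons are the inhibitory neurons of the hippocampus, and they make the transmitter GABA from glutamate. In mice they arise mainly in the medial and caudal ganglionic eminences of the embryonic forebrain. The adult classes are told apart by calcium-binding proteins, neuropeptides, secreted proteins and surface receptors.

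Total RNA was sequenced from hippocampal tissue, labelled as a layer of hippocampus, of female B6CASTF1/J mice aged 25 days. This strain is an F1 hybrid of C57BL/6 and the wild-derived CAST strain. There is a single group with biological replicates 1 and 2, which have separate biosamples and the same donor entry, so their spread may be in part technical. The RNA input was 300 ng a library, ERCC spike-ins (synthetic RNAs added in known amounts) were included, and the strand of the RNA was kept. The libraries held 34919989 and 41206890 expected counts, in the order of replicates 1 and 2 that is used for every pair of values below. With a single group there is no contrast between conditions and no p-value, and the 2 libraries are compared only with each other.

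Levels are TPM, the number of a gene's transcripts relative to all transcripts after correction for transcript length, from the deposited RSEM-format gene table, given as mean ± SD (n = 2) or as the pair of library values. A second deposited table in the kallisto format gives another estimate from the same reads. Nuclear protein-coding genes held 43.4% and 42.0% of TPM in the RSEM-format table but 73.5% and 74.0% in the kallisto-format table, so TPM values are not interchangeable between the tables. In bulk tissue, fewer cells of a type and less RNA per cell cannot be told apart. Coordinates are on mm10 with GENCODE M21 annotation.

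All 10 genes were expressed in both libraries, and their summed level was 321 and 310 TPM (315.9 ± 7.73). They took 27985 and 34520 expected counts, or 0.0801% and 0.0838% of each library. Gad1 stood far above the rest, and Lhx6 was lowest. Among 22015 nuclear protein-coding genes Gad1 ranked 548th by mean TPM and Lhx6 9429th. Of the 9 neighbouring pairs in the order of levels, 7 did not overlap between the libraries. The exceptions were Calb2 with Reln and Reln with Lamp5. On the kallisto-format TPM scale 6 of the 9 neighbouring pairs did not overlap, Reln moved above Calb2, and the overlapping pairs were Nos1 with Pvalb, Reln with Calb2 and Erbb4 with Adarb2.

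**Figure D1:**
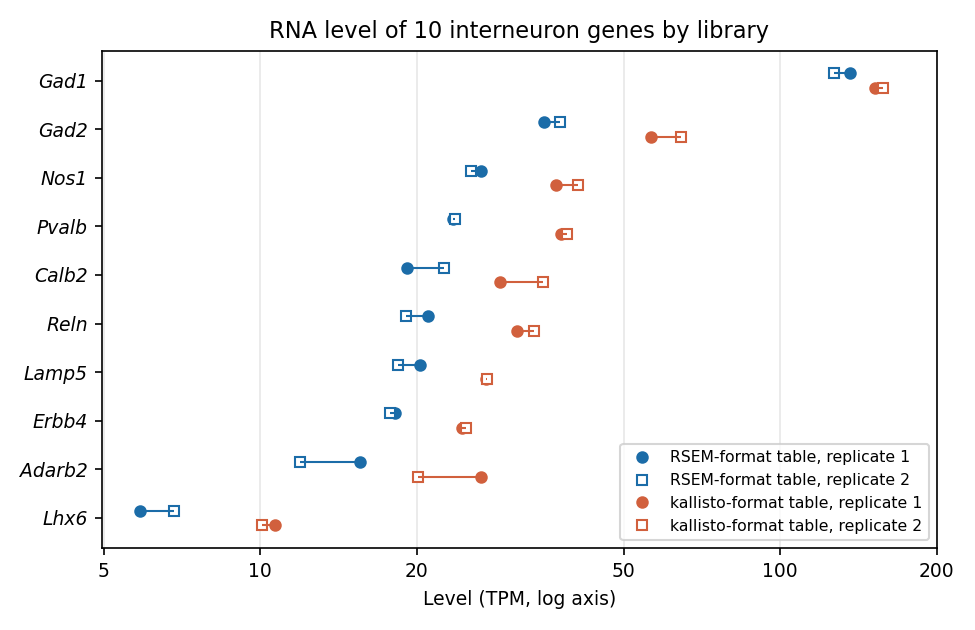
TPM on a log axis for each gene, with filled circles for replicate 1, open squares for replicate 2, and color for the RSEM-format and kallisto-format tables. Gad1 lies at 127 to 136 TPM and Lhx6 at 5.86 to 6.82 TPM in the RSEM-format table, with the other 8 genes between them.

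Gad1 and Gad2 encode GAD67 and GAD65, the glutamate decarboxylases that make GABA. Gad1 (ENSMUSG00000070880.10, chromosome 2, 70553072 to 70602014, plus strand) was at 136 and 127 TPM. Gad2 (ENSMUSG00000026787.3, chromosome 2, 22622205 to 22693874, plus strand) was at 35.2 and 37.8 TPM. Gad1 was thus above Gad2 in both libraries, with a TPM ratio of 3.87 and 3.36 (3.62 ± 0.354). It differed between the tables and units. It was 2.70 and 2.45 in the kallisto-format TPM, and 1.61 and 1.70 in expected counts, which are not corrected for length.

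The annotated Gad1 transcripts were divided very differently by the tables. Gad1-201, the full-length coding transcript of 3355 bases, held 38.4% and 47.6% of the gene's TPM in the RSEM format and 84.7% and 89.6% in the kallisto format. Gad1-206, a processed transcript that begins with its own 77-base first exon, held 25.5% and 27.0% in the RSEM format, and near 0% and 2.03% in the kallisto format. Gad1-204, a 398-base transcript that starts 8970 bases upstream, held 27.3% and 18.2% of TPM from 267 and 208 expected counts, and is listed at 0 in the kallisto format. Of the 3325 stretches of 31 bases (31-mers) in Gad1-201, 2 occur in no other annotated transcript. The effective length of Gad1, by which counts are divided, was 2195 bases in replicate 1 and 2489 in replicate 2. Gad1 had 7182 and 9502 expected counts, more in replicate 2, while its TPM was lower there. Gad2 was simpler. Gad2-201 held 92.8% and 86.0% of its TPM, and the remaining 7.20% and 14.1% went to Gad2-202, a 721-base processed transcript with 37.9 and 99.2 expected counts.

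Lhx6 and Adarb2 mark the main developmental lineages. Lhx6, a LIM-homeodomain transcription factor of interneurons from the medial ganglionic eminence (ENSMUSG00000026890.19, chromosome 2, 36081953 to 36105408, minus strand), was at 5.86 and 6.82 TPM. Adarb2, a brain RNA-binding protein of the adenosine deaminase family with no known editing activity and a marker of interneurons from the caudal eminence (ENSMUSG00000052551.16, chromosome 13, 8202866 to 8768747, plus strand), was at 15.6 and 11.9 TPM. By gene total, Lhx6 was below Adarb2 in both libraries, at 0.377 and 0.573 of its TPM, and at 0.402 and 0.501 in the kallisto format. Among transcripts annotated as protein coding the order was not fixed in the RSEM format. Those of Lhx6 had 5.41 and 5.99 TPM, and those of Adarb2 5.46 and 5.0. In the kallisto format the gene totals were 10.67 and 10.1 TPM for Lhx6 and 26.56 and 20.15 for Adarb2. Transcripts not annotated as coding held 2.38% and 0.41% of the Lhx6 total and 68.4% and 60.3% of the Adarb2 total. The coding transcripts of Lhx6 were thus above those of Adarb2 in both libraries of that format.

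By TPM, most Adarb2 RNA was not assigned to a coding transcript, whereas coding transcripts held 48.5% and 53.2% of its expected counts. Adarb2-203, annotated as a target of nonsense-mediated decay, led with 38.0% and 40.5% of TPM, and the coding Adarb2-201 followed with 32.6% and 34.5%. Both carry 2235 coding bases, and Adarb2-203 ends 7217 bases farther downstream. By share of expected counts the longer Adarb2-201 led, with a mean of 46.8%. Adarb2-206, a single 3887-base exon annotated as a retained intron at the start of the gene, held 16.7% and 12.8%. The transcripts annotated as noncoding or decay targets together had 10.1 and 6.90 TPM, and the coding ones 5.46 and 5.0 TPM. Gm48261, a gene model of class TEC that lies within Adarb2 on the same strand (chromosome 13, 8282248 to 8286103), had 171 and 78 expected counts, a log2 ratio of -1.45. Of 26 annotated genes that overlap any of the 10, it was one of 4 with at least 20 counts. The others were Gm48259 and Gm48262 within Adarb2, with 17 and 10 and with 13 and 10 counts, and Gm37769 within Erbb4, with 18 and 9.

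Lhx6 transcripts could not be separated well. The 4 transcripts Lhx6-201, Lhx6-202, Lhx6-204 and Lhx6-205 have no 31-mer of their own. Lhx6-204 led in the RSEM format with 48.6% and 36.8% of TPM, and Lhx6-205 led on average in the kallisto format with 27.3% and 52.2%. Lhx6-201 held 11.3% and 27.3% in the RSEM format and is near 0 in the kallisto format, whereas Lhx6-202 held 8.78% and 27.1% in the kallisto format and is near 0 in the RSEM format. Those transcripts share a 104-base exon (chromosome 2, 36087368 to 36087471, minus strand) that Lhx6-204 and Lhx6-205 skip. As its length is not a multiple of 3, the reading frame and thus the C-terminal end of the protein differ. The exon is shown in capitals with 15 bases of its neighbours on each side, above the junction that skips it, because it distinguishes the coding forms more plainly than the transcript names do.
Lhx6 C-terminal exon: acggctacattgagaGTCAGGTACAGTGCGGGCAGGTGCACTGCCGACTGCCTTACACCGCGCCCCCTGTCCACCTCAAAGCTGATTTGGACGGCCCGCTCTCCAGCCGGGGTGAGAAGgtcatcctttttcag
Lhx6 C-terminal exon skipped: acggctacattgagagtcatcctttttcag
Transcripts with the exon made up 16.5% and 31.1% of the TPM of those with or without it, and 22.8% and 27.3% in the kallisto format. The exon-skipping form was thus the larger in both libraries and both tables.

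Pvalb, Calb2 and Lamp5 mark interneuron classes. Pvalb encodes parvalbumin, the calcium buffer of fast-spiking basket and axo-axonic cells (ENSMUSG00000005716.16, chromosome 15, 78191114 to 78206400, minus strand). Its level was 23.5 and 23.7 TPM from 494 and 621 expected counts. Both annotated transcripts hold the same number of coding bases, 330, and differ in their first exons. Pvalb-201 held 81.1% and 69.4% of TPM and Pvalb-202, which starts 2163 bases upstream, 18.9% and 30.6%. In the kallisto format Pvalb-202 had 9.48% and 0.02%, so the use of the upstream start was not stable between the tables. The windows around both starts are shown from RefSeq (GRCm38.p6), 250 bases before and 50 after the first base, with CG dinucleotides in capitals, since the transcripts differ at their starts. They lie at chr15:78206351-78206650 and chr15:78204188-78204487, minus strand.
Pvalb-202 start: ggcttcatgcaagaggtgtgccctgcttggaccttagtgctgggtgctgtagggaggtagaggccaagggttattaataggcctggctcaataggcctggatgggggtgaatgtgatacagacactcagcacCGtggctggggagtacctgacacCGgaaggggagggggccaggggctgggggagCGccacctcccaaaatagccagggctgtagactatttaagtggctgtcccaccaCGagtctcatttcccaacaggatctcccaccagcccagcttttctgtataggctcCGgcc
Pvalb-201 start: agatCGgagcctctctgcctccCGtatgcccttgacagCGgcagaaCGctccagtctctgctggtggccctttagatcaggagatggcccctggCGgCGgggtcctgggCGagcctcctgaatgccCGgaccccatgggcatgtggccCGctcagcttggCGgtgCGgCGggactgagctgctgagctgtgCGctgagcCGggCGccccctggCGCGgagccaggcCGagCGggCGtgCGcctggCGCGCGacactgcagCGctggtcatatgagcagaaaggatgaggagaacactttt
The Pvalb-201 window has 25 CG dinucleotides and 67.7% G and C, and the Pvalb-202 window has 5 and 58.3%. The medians over 32851 RefSeq promoter windows of the same length are 7 and 52.7%. Searched on both strands, the letters TATAAA occur in neither Pvalb window and in 13.6% of all windows. The letters CCAAT occur in neither and in 37.4% of all, and the letters GGGCGG occur in neither and in 35.7% of all.

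Calb2 encodes calretinin, a calcium-binding protein of interneuron-selective interneurons and, in mice, also of mossy cells and immature granule cells of the dentate gyrus. Calb2 (ENSMUSG00000003657.9, chromosome 8, 110137502 to 110168210, minus strand) was at 19.2 and 22.5 TPM from 614 and 900 expected counts. Calb2-201 accounted for 100% and 99.6% of its TPM. Of 7 marker genes of mossy and immature granule cells, 6 reached 1 TPM in both libraries. The highest were Neurod1 at 15.9 and 13.3 TPM, Sox11 at 10.9 and 9.32, and Dcx at 8.59 and 8.75. The other listed genes were lower, among them Calcrl at 4.54 and 3.64 and Drd2 at 1.15 and 1.51. The summed level of all 7 was 47.1 and 42.2 TPM, which pools both cell types and does not separate them. The part of those cells in the Calb2 level was not tested.

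Lamp5, a brain member of the lysosome-associated membrane protein family that marks neurogliaform cells among interneurons (ENSMUSG00000027270.14, chromosome 2, 136052239 to 136069917, plus strand), was at 20.3 and 18.4 TPM. The tables named different leading transcripts. In the RSEM format Lamp5-202, a processed transcript with no annotated coding bases, held 52.3% and 50.3% of TPM and the coding Lamp5-201 35.5% and 44.8%. The kallisto format gave Lamp5-202 17.0% and 12.1% and Lamp5-201 78.6% and 83.9%. None of the 1354 31-mers of Lamp5-202 is its own. The gene's total was 27.2 and 27.3 TPM in the kallisto format and 20.3 and 18.4 in the RSEM format, on scales that are not interchangeable. With TPM rescaled to the same total over nuclear protein-coding genes the order turned. It was then 37.0 and 36.8 in the kallisto format and 46.7 and 43.8 in the RSEM format.

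Reln encodes reelin, a large secreted glycoprotein that guides neuronal layering and is made after birth mainly by interneurons. Reln (ENSMUSG00000042453.14, chromosome 5, 21884454 to 22344702, minus strand) was at 21.03 and 19.05 TPM from 4283 and 5114 expected counts. Marker genes of Cajal-Retzius cells, the early source of reelin, were at low levels. None of the 5 listed reached 1 TPM in both libraries, and the summed level was 3.08 and 2.18 TPM, with Trp73 at 1.46 and 0.96. In the kallisto format 2 of 5 did, Trp73 at 2.65 and 1.93 TPM and Nhlh2 at 1.43 and 1.38. The part of these cells in the Reln level was not tested. The full-length Reln-207, with 65 exons and 10383 coding bases, held 67.8% and 72.3% of TPM in the RSEM format and 59.4% and 59.5% in the kallisto format. Reln-212, a 600-base decay target, held 4.59% and 4.10% and, in the kallisto format, 14.9% and 17.3%.

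A 6-base microexon near the 3′ end of the coding region (chromosome 5, 21891562 to 21891567, minus strand) separates Reln-207 from Reln-201. It is shown in capitals because the transcript that holds it was the larger of the pair. These transcripts, of 11699 and 10885 bases, also differ outside the microexon, so the share is of whole transcripts and not of reads across the exon. The same holds for the Erbb4 and Nos1 exons below.
Reln microexon: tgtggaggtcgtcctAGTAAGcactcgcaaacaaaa
Reln microexon skipped: tgtggaggtcgtcctcactcgcaaacaaaa
Reln-207 made up 97.8% and 97.3% of the TPM of this pair, and 85.7% and 92.7% in the kallisto format. The form with the microexon was the larger in both libraries and both tables.

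Erbb4 encodes the neuregulin receptor tyrosine kinase that in the hippocampus is found chiefly on interneurons. Erbb4 (ENSMUSG00000062209.15, chromosome 1, 68032186 to 69108059, minus strand) was at 18.2 and 17.7 TPM from 3142 and 3714 expected counts. The full-length Erbb4-202 held 48.7% and 46.3% of TPM, and Erbb4-205, an annotated transcript of 2196 bases that ends early, 43.8% and 50.4%. They changed places between the libraries in the RSEM format, and Erbb4-202 led in both libraries in the kallisto format. By expected counts Erbb4-202 led, with a mean of 80.0%.

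The alternative exons of Erbb4 decide how the receptor is cut and signals. The juxtamembrane exons JM-a and JM-b exclude each other, and the JM-a form can be cleaved at the cell surface by a metalloprotease. The CYT-1 exon adds a docking site for phosphatidylinositol 3-kinase to the cytoplasmic tail, and CYT-2 forms lack it. JM-a lies on chromosome 1 at 68290243 to 68290317, JM-b at 68290439 to 68290483 and the CYT-1 exon at 68043908 to 68043955, all on the minus strand. They are shown in capitals between 15 bases of the neighbouring exons.
Erbb4 JM-a exon: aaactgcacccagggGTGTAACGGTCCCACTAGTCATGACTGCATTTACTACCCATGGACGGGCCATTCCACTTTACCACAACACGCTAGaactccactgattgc
Erbb4 JM-b exon: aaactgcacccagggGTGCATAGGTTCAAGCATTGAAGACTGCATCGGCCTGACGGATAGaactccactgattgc
Erbb4 CYT-1 exon: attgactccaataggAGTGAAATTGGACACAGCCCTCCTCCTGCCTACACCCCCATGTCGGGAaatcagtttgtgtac
Erbb4 CYT-1 exon skipped: attgactccaataggaatcagtttgtgtac
The full-length CYT-1 transcript, Erbb4-201, made up 7.24% and 6.71% of the TPM of Erbb4-201 and Erbb4-202, and 7.38% and 5.31% in the kallisto format. The CYT-2 form was thus the larger in both libraries and both tables. Transcripts with JM-a made up 53.6% and 49.6% of the TPM of those with either juxtamembrane exon, and 60.2% and 56.7% in the kallisto format. JM-b is annotated only in Erbb4-204 and Erbb4-205, so its share rests on short annotated models. All 2196 annotated bases of Erbb4-205 are coding, and whether it stands for a complete transcript was not tested. In expected counts the JM-a transcripts had 2734 and 3151 and the JM-b transcripts 402 and 563. These counts are not corrected for length. The JM-a transcripts have 11782 and 12037 bases, and the JM-b transcripts 240 and 2196.

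Nos1 encodes neuronal nitric oxide synthase, which makes a diffusible messenger and is enriched in neurogliaform, ivy and projecting interneurons, and is also present in pyramidal cells. Nos1 (ENSMUSG00000029361.18, chromosome 5, 117781032 to 117958840, plus strand) was at 26.6 and 25.4 TPM from 4955 and 5907 expected counts. Nos1-206, the full coding transcript of 10123 bases, held 71.9% and 72.1% of TPM. Nos1-205, a 735-base transcript starting 60818 bases upstream, held 17.1% and 18.0% from 69.8 and 87.5 expected counts, and 7.09% and 16.7% in the kallisto format.

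Nos1-202 carries a 102-base exon (chromosome 5, 117915547 to 117915648, plus strand) that defines the nNOS-mu form, known best from skeletal muscle. It is shown in capitals because that form was a minority in this tissue.
Nos1 insert exon: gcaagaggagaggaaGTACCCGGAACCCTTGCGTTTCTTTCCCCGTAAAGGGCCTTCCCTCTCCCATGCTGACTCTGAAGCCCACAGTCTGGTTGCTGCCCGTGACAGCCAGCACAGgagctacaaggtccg
Nos1 insert exon skipped: gcaagaggagaggaagagctacaaggtccg
Nos1-202 made up 9.91% and 9.61% of the TPM of transcripts with or without the exon, and 15.5% and 11.1% in the kallisto format. The form without the insert was the larger in both libraries and both tables.

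**Figure D2:**
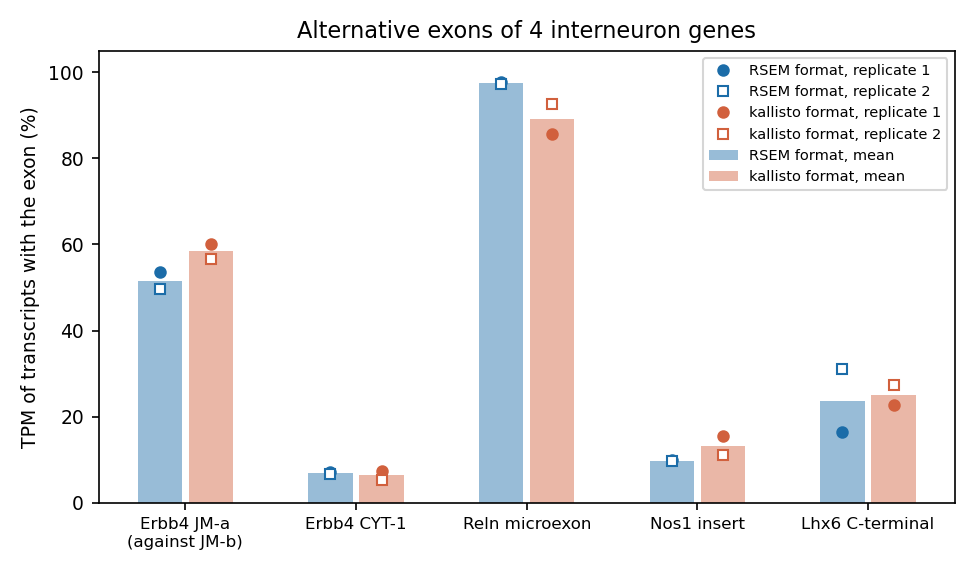
Share of TPM, in percent, of transcripts with each alternative exon among those with and without it (for JM-a, against JM-b), with bars for the mean and points for each replicate in the RSEM-format and kallisto-format tables. The Reln microexon lies at 85.7% to 97.8% and the Erbb4 CYT-1 exon at 5.31% to 7.38%.

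Across the 10 genes, the leading transcript held over 50% of TPM in 6 genes in the RSEM format and in 8 in the kallisto format. The leader was the same in both tables for 8 genes, all but Lamp5 and Lhx6. In the RSEM format it was annotated as protein coding for 8 genes, all but Lamp5 and Adarb2, and was the same in both libraries for 9, all but Erbb4. In the kallisto format the Lamp5 leader was the coding Lamp5-201, and Erbb4-202 led in both libraries. There the Lhx6 leader changed, from Lhx6-204 in replicate 1 to Lhx6-205 in replicate 2. Of the 61 transcripts, 3 are listed at 0 in both libraries and both tables. The share of a gene's 31-mers that also occur in other genes ran from 0% for Pvalb, Calb2 and Erbb4 to 3.97% for Gad1.

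**Figure D3:**
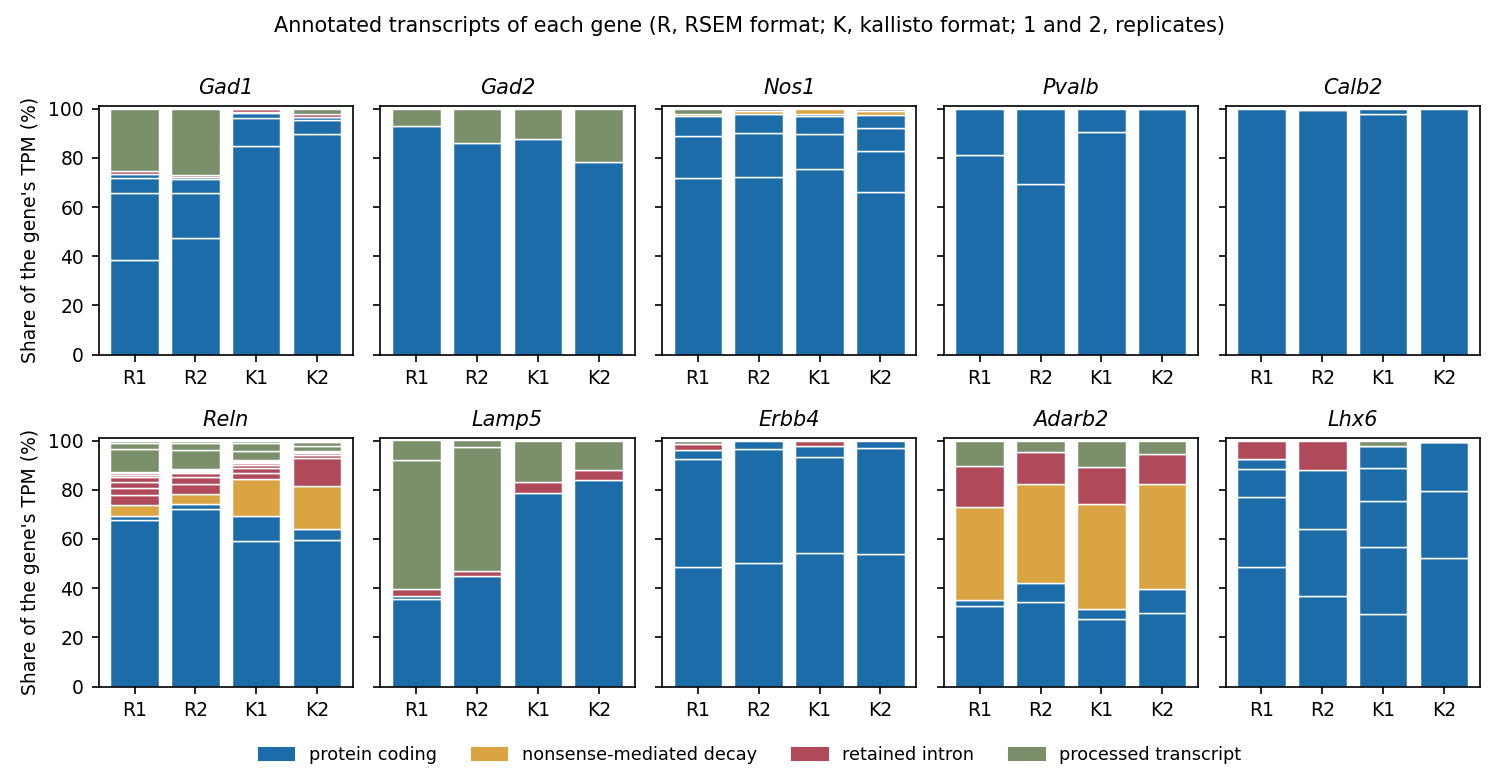
Share of each gene's TPM, in percent, taken by each annotated transcript, stacked and colored by annotated class, for both replicates in the RSEM-format (R1, R2) and kallisto-format (K1, K2) tables. Calb2 is at least 97.9% Calb2-201 in all bars, whereas the bars of Gad1, Lamp5 and Lhx6 differ between the tables.

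Between the libraries the log2 ratios of the 10 genes on deposited TPM ran from -0.39 to 0.23, within the central 95% of all genes. A ratio required a sum of 200 or more expected counts from the 2 libraries, and all 10 passed. None differed 2-fold (0 of 10), where 0.825% of all 12962 genes did, and none differed 1.5-fold, where 3.88% did. With shares this low among all genes, 0 of 10 does not set these genes apart. Nor did any differ 2-fold in the kallisto format (1.42% of all genes), with rescaled TPM (0.671%), with TMM or DESeq2 scaling of counts (0.501% each) or with spike-ins (0.918%). The same held for log2(TPM + 1), where 0.131% of all genes did, and with a minimum of 20 counts or none, where 6.37% and 9.92% did. Of the 10, 4 were higher in replicate 2, where 34.7% of all genes had a ratio above 1. Their median log2 ratio of replicate 2 over replicate 1 was -0.051, beside -0.072 over all genes, of which the central 95% lay from -0.66 to 0.32. The split depended on the scaling. The number of genes higher in replicate 2 was 8 in the kallisto format, where 41.7% of all genes were higher, and 5 with TPM rescaled over nuclear protein-coding genes, where 44.9% were. It was 9 with TMM or DESeq2 scaling of counts, where 55.9% of all genes were higher, and 2 with spike-in scaling, where 12.2% were. The median of all genes was 0.025 with TMM and -0.17 with spike-ins.

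On deposited TPM Adarb2 had the ratio farthest from 1, whereas with TMM and DESeq2 scaling Calb2, at a log2 ratio of 0.32, and Lhx6, at 0.25, were farther than Adarb2, at -0.24. Adarb2 was lower in replicate 2, with a TPM ratio of 0.765 (95% counting interval 0.716 to 0.818), a log2 ratio of -0.39, and 9.07% of all genes had a ratio as low. It was lower under each scaling and in the kallisto format, with log2 ratios from -0.44 to -0.24. Marker genes of the thalamus had a summed level of 48.5 and 35.3 TPM. On deposited TPM, where 34.7% of all genes were higher in replicate 2, 5 of 5 were lower, as in the kallisto format, and with TMM 4 of 5 were. Their part in the Adarb2 ratio was not tested. Calb2 was higher in replicate 2, at a TPM ratio of 1.18 (1.06 to 1.30), and its log2 ratio ran from 0.12 to 0.32 over the scalings. Lhx6 had a ratio of 1.16 (1.02 to 1.32), which turned to a log2 ratio of -0.080 in the kallisto format. Gad1 had a ratio of 0.934 (0.906 to 0.964), with log2 ratios of -0.098 in TPM, 0.054 in the kallisto format and 0.17 with TMM, so that its direction was not fixed. Gad2 stood at 1.07 (1.03 to 1.12), with a log2 ratio of 0.10 that turned to -0.10 with spike-ins. Intervals cover counting error only and contain 1 for Pvalb, Lamp5 and Erbb4, at log2 ratios of 0.014, -0.14 and -0.033. Reln and Nos1, at TPM ratios of 0.906 and 0.953, changed direction in the kallisto format and with TMM.

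**Figure D4:**
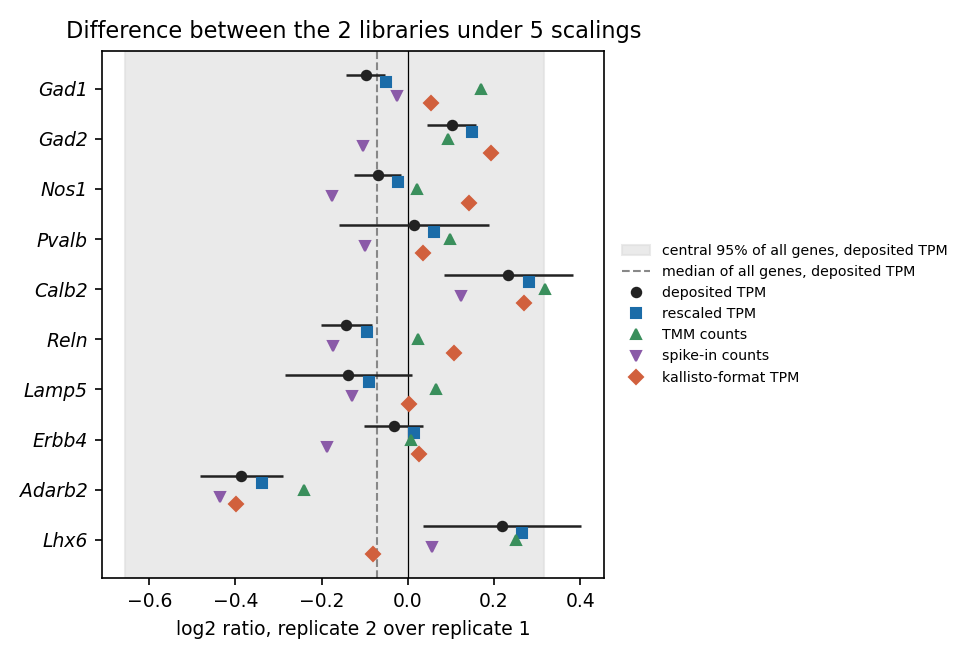
log2 ratio of replicate 2 over replicate 1 for each gene under 5 scalings, with 95% counting intervals on the deposited TPM, and the median and central 95% of all 12962 genes in gray. Adarb2 lies left of 0 and Calb2 right of 0 under each scaling shown, and every other gene has points on both sides.

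The other genes of GABA handling were also expressed. All 6 listed genes for packaging, uptake and breakdown reached 1 TPM in both libraries. Abat, the GABA transaminase, was at 58.1 and 59.2 TPM, and Slc6a11, the astrocytic transporter GAT-3, at 40.8 and 40.1. Slc32a1, the vesicular GABA transporter and a defining marker of inhibitory neurons, was at 30.1 and 31.5 TPM, below Gad2 in each library. All 6 forebrain GABAergic transcription factors were detected at 1 TPM, among them Maf (8.47 and 7.98) and Dlx1 (6.87 and 7.85). Slc17a7, the vesicular glutamate transporter of excitatory neurons, was at 648 and 630 TPM, the highest of the 98 other listed genes.

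Lineage partners of Lhx6 and Adarb2 spanned a wide range. Of 12 genes of the medial eminence lineage, 10 reached 1 TPM in both libraries, led by the neuropeptide Sst at 168 and 197 TPM and the fast-spiking potassium channels Kcnc1 at 48.5 and 42.6 and Kcnc2 at 36.8 and 32.3. Of 12 genes listed for the caudal lineage, 11 did. Cck led at 301 and 298 TPM, followed by the cannabinoid receptor gene Cnr1 at 79.9 and 75.9 and Npy at 61.2 and 59.2, although excitatory neurons express Cck too and Npy also marks interneurons of the medial lineage. Adar and Adarb1, the editing enzymes related to Adarb2, were at 49.7 and 42.0 and at 50.1 and 41.7 TPM, both above Adarb2.

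Signalling partners were present for Reln, Erbb4 and Nos1. All 8 reelin pathway genes were above 1 TPM, led by Pafah1b1 (157 and 146), Fyn (73.0 and 70.9) and Src (69.1 and 58.5). Among 10 ErbB receptors and ligands, 6 reached 1 TPM in both libraries, led by Nrg3, a neuregulin ligand of ERBB4, at 28.6 and 23.1 TPM, with Egfr at 4.85 and 6.14 and Nrg2 at 4.72 and 5.14. In the nitric oxide list 8 of 9 genes did, led by the NOS1 adaptor gene Nos1ap at 80.6 and 67.2 TPM and the guanylate cyclase subunit genes Gucy1b1 at 43.9 and 47.1 and Gucy1a2 at 26.4 and 24.7. The calcium buffer gene Calb1 was at 58.0 and 64.4 TPM, and the 2 other EF-hand genes listed did not reach 1 TPM. Of the LAMP family, Lamp1 was at 118 and 126 TPM, Lamp2 at 27.96 and 28.79, and Cd68 at 5.78 and 6.14.

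**Figure D5:**
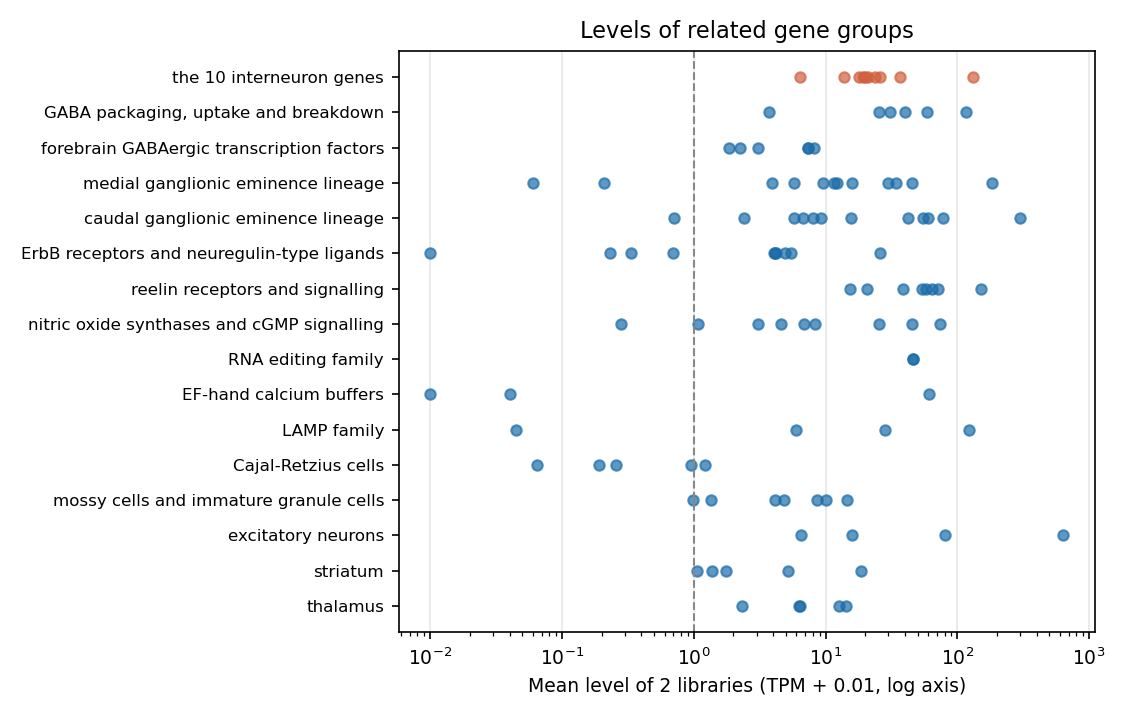
Mean TPM of the 2 libraries (plus 0.01, log axis) for each gene of each list, 1 point a gene, with the 10 interneuron genes at the top in orange and 1 TPM as a dashed line. On this RSEM-format scale Trp73, at a mean of 1.21 TPM, is the only Cajal-Retzius gene above the line, though it is not at 1 TPM in both libraries. All reelin pathway genes are above the line.

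Of the 98 other listed genes, 75 had at least 200 counts. On deposited TPM none of these differed 2-fold, where 0.825% of all genes did, and their median log2 ratio was -0.042. On that scale 29 were higher and 46 lower in replicate 2, beside 34.7% of all genes higher. The split turned to 43 higher and 32 lower with TMM, beside 55.9% of all genes higher, and was 33 and 43 in the kallisto format, beside 41.7%. Among 5 marker genes of striatum, another brain region rich in GABAergic neurons, Ppp1r1b was at 17.1 and 20.3 TPM, Rgs9 at 5.22 and 5.07, and Drd1 at 1.42 and 2.08. Their summed level was 25.6 and 30.4 TPM, and their part in the levels of the 10 genes was not tested. Thalamic Prkcd was at 17.5 and 11.1 TPM, Rora at 13.9 and 11.1, and Tcf7l2 at 7.95 and 4.93. Of the excitatory genes, Neurod6 was at 90.7 and 71.1 TPM and Tbr1 at 16.51 and 15.04. All 4 were lower in replicate 2 on deposited TPM, a scale on which 34.7% of all genes were higher, and 3 of 4 were lower with TMM and in the kallisto format.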

How the data were processed

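Stranded total RNA libraries with ribosomal RNA reduced, 2 replicates of 1 group, were analysed. The authors deposited RSEM-format gene and transcript tables holding expected counts and TPM, made from alignments to the transcriptome according to the deposited notes. The deposited transcript tables also give each transcript's percent of its gene's TPM. A kallisto-format table of estimated counts and TPM per transcript was deposited by the authors too, and was made from the reads. The labels name mm10 as the build, and the deposited notes name GENCODE M21. The aligner is not given in the sources used here.

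The genes and lists were chosen with earlier results of these data known, and the exons shown and Slc32a1 were chosen after their values were seen. TPM was used as deposited, and kallisto-format TPM was summed per gene. A ratio of the libraries needed a sum of 200 expected counts, with a floor of 3 counts, and its Clopper-Pearson 95% interval was scaled to TPM. Named were all 10 genes, their leading transcripts and those with a mean share of at least 10%, the 3 highest genes of each list, listed genes differing 2-fold, and overlapping genes with at least 20 counts, although 2 of the listed genes are not reported here. Alternatives were the kallisto format, TPM summing to the same total over nuclear protein-coding genes, TMM factors (edgeR 4.0.16), DESeq2 1.42.0 size factors, spike-ins, a pseudocount of 1, other minimums and thresholds, and single replicates. Tools were Python 3.11.15 with numpy 2.4.6, pandas 2.3.3, matplotlib 3.10.9 and scipy 1.17.1, and R 4.3.3.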

Additional observations from a re-analysis of the deposited data

How the results depend on the processing

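The summed level of the 10 genes, 315.9 TPM, was 443 in the kallisto format, 740.1 rescaled over nuclear protein-coding genes and 600.1 in the kallisto format rescaled the same way, the last added after seeing the data. With 1 replicate left out it ran from 310.4 to 321. The Gad1 to Gad2 ratio, 3.62, was 2.58 in the kallisto format and 3.36 to 3.87 with 1 replicate left out, and the Lhx6 to Adarb2 ratio ran from 0.377 to 0.573. The number of the 10 genes higher in replicate 2, 4, was 8 in the kallisto format, 9 with TMM, 9 with DESeq2 size factors and 2 with spike-ins. In the same order, 34.7%, 41.7%, 55.9%, 55.9% and 12.2% of all genes were higher. The median log2 ratio of the 10, -0.051, was 0.045 in the kallisto format, 0.079 with TMM and 0.079 with DESeq2 size factors. The medians of all genes were -0.072, -0.043, 0.025 and 0.025 in that order. The count of other listed genes differing 2-fold, 0 of 75, was 1 of 76 in the kallisto format, 3 with at least 20 counts, 4 with no minimum, and 4 of 75 at a threshold of 1.5-fold. In the same order, 0.825%, 1.42%, 6.37%, 9.92% and 3.88% of all genes differed so. The lower minimums also let in more of the listed genes. With 1 replicate left out, 6 to 7 genes had a leading transcript over 50% and 7 to 9 the same leader in both tables. The causes of these shifts were not tested. Lamp5-202 and the Lhx6 transcripts named have no 31-mer of their own and Gad1-201 has 2, and ratios rest on 1 library against 1. No paired analysis was possible because there is a single group.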
